A study of Homo sapiens with 8 samples.

Results

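Genes of the nuclear lamina and of chromatin structure were followed across 4 groups of human fibroblast libraries. The 10 genes are LMNA, LMNB1, LMNB2, LBR, TMPO, HMGB1, HMGB2, HMGA1, HMGA2 and EZH2. They were taken by name from a table of 54628 genes, and all 10 were found and passed the filter on low counts, as did 17155 genes in all. Messenger RNA was sequenced in 8 libraries, 2 per group, of IMR90 cells, a line of human lung fibroblasts. All cells carried hTERT, the catalytic subunit of telomerase, and a pinducer20 vector that expresses N-terminally Flag-tagged YAP5SA when doxycycline is present. YAP5SA is a constitutively active form of the transcriptional coactivator YAP. The first group was untreated and proliferating, and the second was proliferating with doxycycline at 1 ug/ml for 11 days. The third was made senescent with bleomycin, a drug that breaks DNA, given at 10 ug/ml over 24 hours and followed by 9 days of culture. The fourth received bleomycin in the same way and doxycycline at 1 ug/ml for 11 days. These 11 days are longer than the 24 hours and 9 days together, so doxycycline was not first given to cells already senescent. A doxycycline change in senescent cells means the fourth group against the third. None of these libraries is of doxycycline-treated cells that lack the transgene, so effects of the drug and of the induced protein cannot be told apart. The labels do not say whether the line is 1 clone or whether the replicates were separate cultures, so p-values measure the spread between these libraries, which may be technical.

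The nuclear lamina is a mesh of lamin filaments under the inner nuclear membrane that holds heterochromatin at the nuclear edge. A-type lamins come from LMNA and B-type lamins from LMNB1 and LMNB2, while LBR and the LAP2 proteins of TMPO link lamins and chromatin to the membrane. HMG proteins are abundant, non-histone DNA-binding proteins that bend or open chromatin, and EZH2 is the methyltransferase of Polycomb repressive complex PRC2. Loss of lamin B1, HMGB2 and EZH2 is widely used as a sign of senescence in fibroblasts, and HMGA proteins are known as structural parts of senescence-associated heterochromatin foci.

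Total counts ran from 33627708 to 39692162 per library. CPM is the usual depth-scaled count of a gene, here with library sizes scaled by TMM factors, and is given per library or as mean ± SD (n = 2). Changes on the log2 scale, with SE, come from edgeR's quasi-likelihood fit of all 8 libraries. A gene is called when the edgeR p adjusted by the Benjamini-Hochberg method over the 17155 genes is under 0.05. The fibroblast label held: all 11 fibroblast markers listed were above 10 CPM in all libraries. The 6 leukocyte markers were under 1 CPM in all libraries, 3 of 6 epithelial markers were, and 4 of 6 endothelial markers were. The other epithelial markers, CDH1, KRT14 and CLDN4, did not exceed 1.22 CPM (KRT14) in any library. CDH1 and KRT14 were at 0 CPM in untreated proliferating cells and at 1.09 ± 0.0785 and 1.02 ± 0.291 CPM in senescent cells with doxycycline. Of 3 epithelial markers tested, 2 were called higher with doxycycline in each state, against 12.6% (proliferating) and 22.6% (senescent) of all genes. Of the endothelial list only TEK, a receptor tyrosine kinase, was above 10 CPM, at 69.3 ± 1.17 CPM in proliferating and 144 ± 13.7 CPM in senescent cells, and 47.8 ± 3.47 and 101 ± 6.78 CPM with doxycycline. The other endothelial markers did not exceed 1.31 CPM (VWF) in any library. YAP1, whose counts mix the endogenous gene with any transgene reads, stood at 197 ± 1.69 and 214 ± 34.03 CPM in proliferating cells without and with doxycycline. It was 207 ± 23.4 and 289 ± 2.83 CPM in senescent cells. Its rise with doxycycline was called in senescent cells (log2 change 0.48, edgeR adjusted p = 0.00140) and not in proliferating cells, where the libraries overlapped (0.12, 95% interval -0.10 to 0.34, adjusted p = 0.431).

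The promoters of 3 genes are shown because TMPO and EZH2 are each other's nearest member over the 8 libraries and LBR lies furthest from the rest (values below). Each is the stretch of 250 bases before the outermost start site that the RefSeq table gives, on the gene's strand, 5′ to 3′, on GRCh38.p14. The table gives 2 start sites each for EZH2 and TMPO and 1 for LBR. Capitals mark a CCAAT box or its reverse complement ATTGG, and in LBR the AP-1 motif TGANTCA. EZH2 lies at chr7:148884292-148884541 (minus strand), TMPO at chr12:98515323-98515572 (plus strand) and LBR at chr1:225428822-225429071 (minus strand).
EZH2: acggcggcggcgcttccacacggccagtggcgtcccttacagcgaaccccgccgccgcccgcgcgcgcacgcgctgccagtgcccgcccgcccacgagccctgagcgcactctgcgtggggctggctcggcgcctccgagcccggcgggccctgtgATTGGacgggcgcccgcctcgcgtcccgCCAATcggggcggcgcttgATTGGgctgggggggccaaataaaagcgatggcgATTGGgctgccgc
TMPO: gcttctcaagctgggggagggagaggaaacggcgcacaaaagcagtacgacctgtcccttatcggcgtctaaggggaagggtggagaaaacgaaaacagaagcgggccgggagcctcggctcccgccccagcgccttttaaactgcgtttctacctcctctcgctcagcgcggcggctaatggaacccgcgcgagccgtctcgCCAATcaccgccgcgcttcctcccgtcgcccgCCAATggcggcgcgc
LBR: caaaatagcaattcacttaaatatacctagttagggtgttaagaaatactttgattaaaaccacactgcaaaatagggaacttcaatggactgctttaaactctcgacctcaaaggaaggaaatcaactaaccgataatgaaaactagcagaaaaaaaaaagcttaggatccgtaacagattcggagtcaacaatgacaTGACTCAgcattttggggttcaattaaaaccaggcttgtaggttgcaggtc
The EZH2 stretch holds 4 CCAAT boxes, the TMPO stretch 2 and the LBR stretch none, and their GC content is 75.6%, 64.8% and 36.8%. The other EZH2 stretch (chr7:148883486-148883735, GC content 79.6%), which is not printed, holds no CCAAT box, and the other TMPO stretch overlaps the printed one and holds the same 2. The RefSeq table holds windows of 300 bases, 250 before and 50 after a start, for 8 of the 10 genes, in 16 windows, some of which overlap. HMGB2 and HMGA2 were not matched. The motifs below were searched on both strands, and no match of 1 motif overlapped a match of another. CCAAT was found in 9 of the 16 windows, in 6 genes (LMNA, LMNB1, TMPO, HMGB1, HMGA1 and EZH2), against 34.6% of the 35116 windows in the table. LBR and LMNB2 had none in any window, and neither did 2 of the 3 LMNA windows, 1 of the 3 HMGB1 windows and 1 of the 2 windows each of LMNB1 and EZH2. An E2F motif (TTTCCCGC, TTTGGCGC, TTTCGCGC or TTTGCCGC) was found in 2 of the 16 windows, in LMNA and EZH2, against 3.31% of all windows. In EZH2 it starts at position 2 after the start site, outside the printed stretch. The CHR motif (TTTGAA or TTCGAA) was found in 2 of the 16 windows, in LMNB2 and HMGB1, against 16.4% of all windows. The AP-1 motif was found in 1 of the 16, in LBR, against 7.71%. The TEAD motif GGAATG was in no window of the 8 genes, against 14.03% of all windows. These matches describe letters in a window and are not measured binding sites.

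Bleomycin lowered all 10 genes. By the edgeR test 10 of 10 were called lower in senescent than in proliferating cells without doxycycline, where 59.2% of all genes tested were called, 29.4% lower and 29.8% higher. The median log2 change of the 10 was -2.13, against 0.01 over all genes. Scaled by total counts alone, all genes shifted by a median of -0.18 on the log2 scale, and 37.1% of calls were higher in place of 50.3%. With doxycycline present in both states 10 of 10 were again called lower, with 55.5% of all genes called, 28.7% lower and 26.8% higher, and a median log2 change of -1.77 against -0.0065 over all genes. In both comparisons the libraries of the 2 states did not overlap for any of the 10 genes. Over all genes 80.8% did not overlap without doxycycline (40.7% higher, 40.1% lower) and 75.6% with it (37.8% higher, 37.8% lower). The sizes differed widely within the group: LMNB1 kept 6.38% of its proliferating level without doxycycline (95% interval 5.38 to 7.56%), while HMGA2 kept 67.9% (59.9 to 76.9%). In a bulk sample, fewer cells with a transcript and less of it per cell cannot be told apart.

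**Figure D1:**
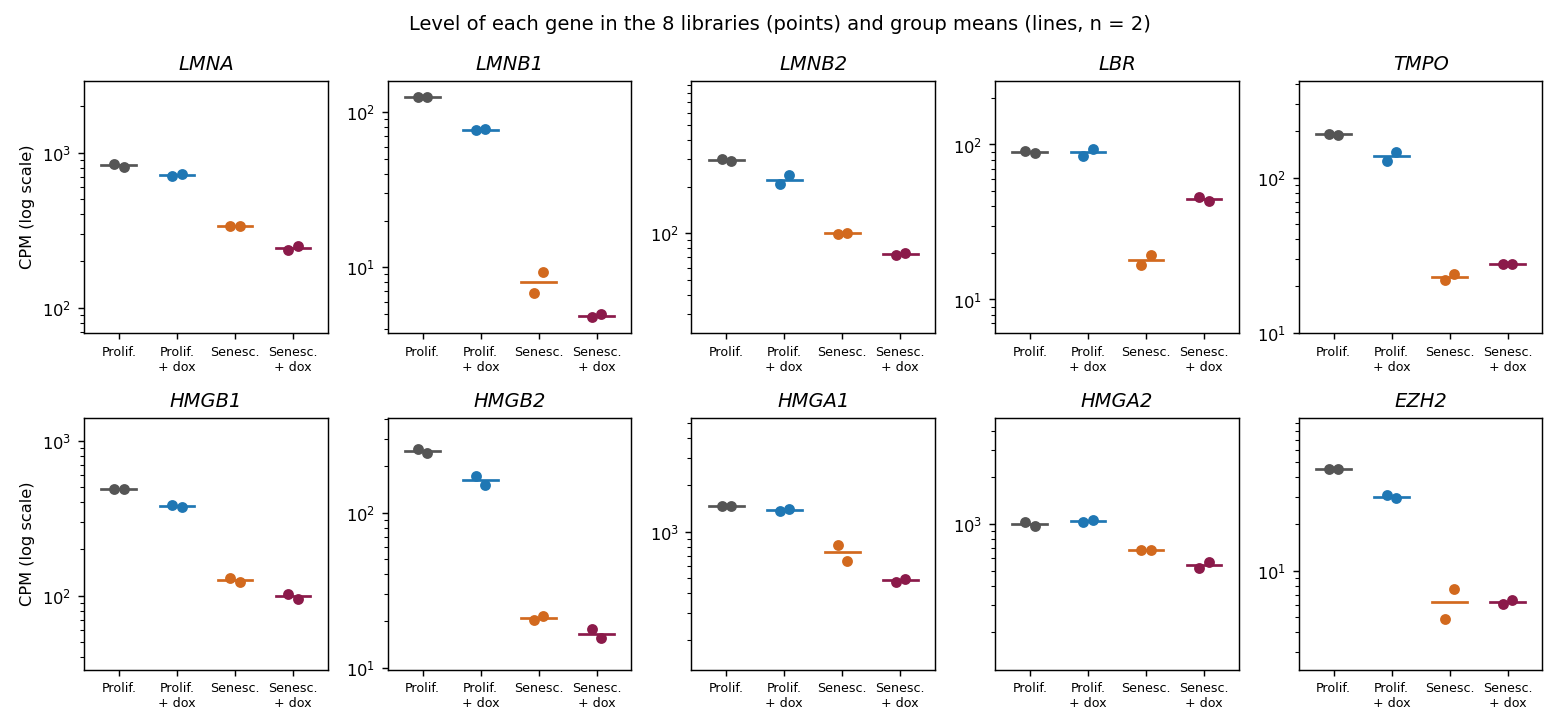
Level of each of the 10 genes in CPM (log axis, equal span in each panel) in the 8 libraries, with points for libraries and lines for group means (n = 2). In all panels the senescent libraries lie below the proliferating libraries, and LBR is the gene whose senescent libraries with doxycycline (45.6 and 43.3 CPM) lie far above those without (16.6 and 19.5 CPM).

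Among the lamins, the fall was greatest for LMNB1. LMNB1, which encodes lamin B1 (chromosome 5, 126776623 to 126837020), was at 126 and 125 CPM in the proliferating libraries, 76.5 and 77.8 CPM with doxycycline, 6.80 and 9.27 CPM in the senescent libraries and 4.76 and 4.98 CPM in those with doxycycline. The libraries of the 4 groups did not overlap, with those of both treatments lowest. Bleomycin lowered LMNB1 15.7-fold without doxycycline (log2 change -3.97, SE 0.12, edgeR adjusted p = 3.35e-13) and 15.8-fold with it (log2 change -3.99, SE 0.12, adjusted p = 7.66e-13). Doxycycline lowered it 1.63-fold in proliferating cells (log2 change -0.70, SE 0.10, adjusted p = 6.67e-05) and 1.65-fold in senescent cells (log2 change -0.72, SE 0.13, adjusted p = 0.000339). The 2 doxycycline changes differed by -0.02 on the log2 scale (95% interval -0.35 to 0.32, adjusted p = 0.962).

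LMNB2, which encodes lamin B2 (chromosome 19, 2428166 to 2456959), was at 302 and 290.1 CPM in proliferating cells, 207 and 236 CPM in those given doxycycline, 98.4 and 101 CPM in senescent cells and 72.04 and 73.98 CPM with doxycycline. The order of the groups was that of LMNB1, but over a much smaller span. Bleomycin lowered LMNB2 2.97-fold without doxycycline (log2 change -1.57, SE 0.08) and 3.03-fold with it (log2 change -1.60, SE 0.08). Doxycycline lowered it 1.34-fold in proliferating cells (adjusted p = 0.00125) and 1.36-fold in senescent cells (adjusted p = 0.000361). Exons of LMNB2 share 257 bases with TIMM13 in GENCODE v29, and TIMM13 had counts of 15.7 to 48.2% of those of LMNB2, so how reads in the shared stretch were assigned is uncertain.

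LMNA, the source of lamins A and C (chromosome 1, 156082573 to 156140081), was at 849.8 and 809.8 CPM in proliferating cells, 705 and 731 CPM in those given doxycycline, 339 and 338 CPM in senescent cells and 234 and 251 CPM with doxycycline. Bleomycin lowered it 2.45-fold without doxycycline (log2 change -1.29, SE 0.08) and 2.96-fold with it (log2 change -1.57, SE 0.08). Doxycycline lowered it 1.395-fold in senescent cells (adjusted p = 0.000198). In proliferating cells the log2 change of -0.21 did not pass (SE 0.08, 95% interval -0.38 to -0.04, adjusted p = 0.0783), although the groups did not overlap. It passed with DESeq2 (adjusted p = 0.0119) and with total counts only (0.0450). Counts per gene do not separate lamin A from lamin C, nor the LAP2 forms of TMPO.

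The unequal falls changed the make-up of lamin transcripts. The count of LMNA divided by that of LMNB1 in the same library was 6.74 and 6.46 in proliferating cells and 9.21 and 9.39 with doxycycline. In senescent cells it was 49.7 and 36.5, and with doxycycline 49.2 and 50.4. The ratio of LMNA to LMNB2 moved little, from 2.80 ± 0.0168 in proliferating cells to 3.40 ± 0.0617 in senescent cells, with 3.25 ± 0.210 and 3.32 ± 0.0974 in the corresponding groups with doxycycline. The absolute value of such a ratio depends on transcript length. Its change between groups does not, as long as the mix of transcript forms and the assignment of reads stay the same, which was not tested. The ratios are given as a description and were not tested.

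**Figure D2:**
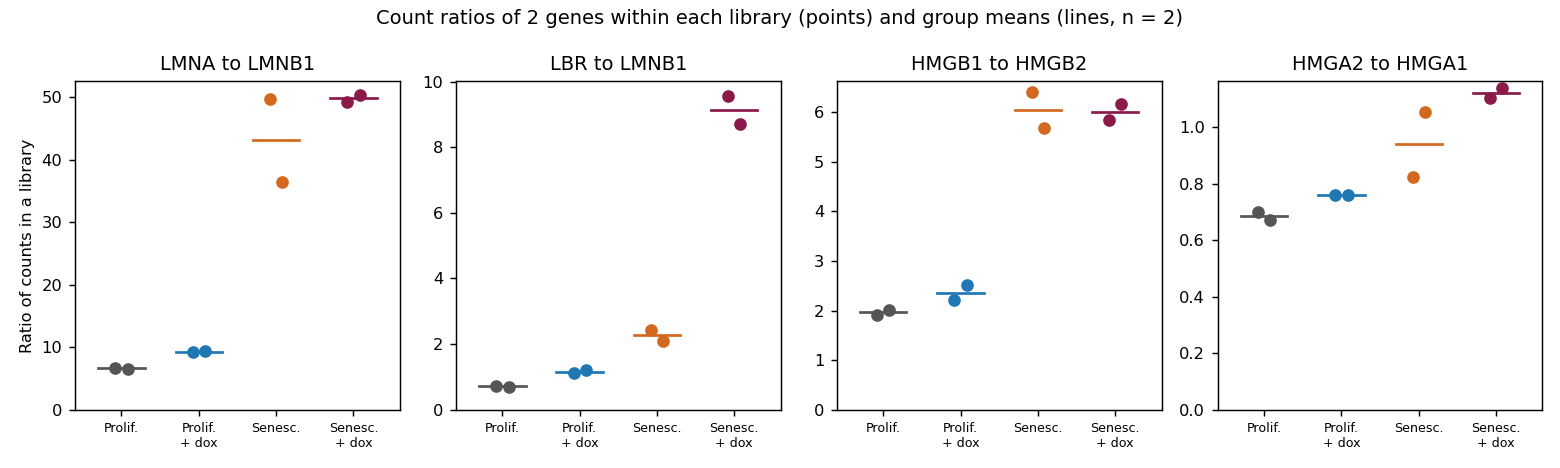
Counts of a first gene divided by counts of a second in the same library, with points for the 8 libraries and lines for group means (n = 2, linear axes from 0). The LMNA to LMNB1 and HMGB1 to HMGB2 ratios separate senescent from proliferating libraries, and the LBR to LMNB1 ratio is highest in senescent libraries with doxycycline (9.57 and 8.70).

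Of the lamin-binding membrane proteins, LBR set itself apart by its response to doxycycline. LBR, the lamin B receptor, which is also a sterol reductase (chromosome 1, 225401502 to 225428821), was at 90.4 and 88.4 CPM in proliferating libraries without doxycycline and 84.7 and 94.1 CPM in those with it. These 4 libraries overlapped, with a log2 change of 0.00034 (95% interval -0.18 to 0.19, edgeR adjusted p = 1). In senescent cells LBR was at 16.6 and 19.5 CPM, and with doxycycline at 45.6 and 43.3 CPM. Doxycycline thus raised it 2.47-fold in senescent cells (log2 change 1.30, SE 0.09, adjusted p = 2.87e-08). The change in senescent cells differed from that in proliferating cells (log2 1.30, SE 0.13, 95% interval 1.03 to 1.57, adjusted p = 6.80e-06), and it was called under all 18 alternatives run, at 1.18 to 1.48 on the log2 scale. Without doxycycline senescent cells kept 20.2% of the proliferating level (95% interval 17.5 to 23.2%). With it they kept 49.7% (43.6 to 56.7%).

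TMPO, which encodes the LAP2 proteins (chromosome 12, 98515573 to 98550351), went down with doxycycline in proliferating cells and up in senescent cells. It was at 193 and 190.001 CPM in proliferating libraries without doxycycline and 129 and 148 CPM in those with it (1.38-fold lower, log2 change -0.47, SE 0.08, adjusted p = 0.000657). Senescent libraries had 21.8 and 24.02 CPM, and those with doxycycline 27.9 and 27.6 CPM (1.21-fold higher, log2 change 0.28, SE 0.09, adjusted p = 0.0198). The rise in senescent cells lost its call without senescent replicate 1 (adjusted p = 0.157) and without either senescent library with doxycycline (0.0833 and 0.0814). The difference between the states was called (log2 0.75, SE 0.12, adjusted p = 0.000592), also with each library left out, but not when tested against a 1.5-fold change (0.384). Bleomycin lowered TMPO 8.35-fold without doxycycline (log2 SE 0.09) and 4.98-fold with it (log2 SE 0.09). The antisense gene TMPO-AS1, with 4.25 to 10.5% of the counts of TMPO, shares 713 exonic bases with it. In senescent cells it fell with doxycycline, from 2.27 ± 0.359 to 1.44 ± 0.376 CPM (log2 change -0.64, adjusted p = 0.0215).

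The HMGB proteins carry paired HMG boxes and bend DNA, and HMGB1 also acts as an alarm signal when released. HMGB2 (chromosome 4, 173331376 to 173334358) was at 256 and 242 CPM in proliferating cells, 173 and 149 CPM in those given doxycycline, 20.4 and 21.5 CPM in senescent cells and 17.6 and 15.5 CPM with doxycycline. Bleomycin lowered it 11.9-fold without doxycycline (log2 change -3.57, SE 0.10, adjusted p = 2.45e-13) and 9.74-fold with it (log2 change -3.28, SE 0.10, adjusted p = 7.87e-13). Doxycycline lowered it 1.54-fold in proliferating cells (log2 change -0.62, SE 0.09, adjusted p = 8.49e-05) and 1.26-fold in senescent cells (log2 change -0.34, SE 0.10, adjusted p = 0.0118). The latter lost its call without senescent replicate 2 (adjusted p = 0.0603), without senescent replicate 2 with doxycycline (0.126) and with total counts only (0.185).

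HMGB1 (chromosome 13, 30456704 to 30617597) was at 490.4 and 487 CPM in proliferating cells, 383 and 375 CPM in those given doxycycline, 130.4 and 122 CPM in senescent cells and 103 and 95.4 CPM with doxycycline. The groups did not overlap. Its fall was smaller than that of HMGB2: 3.87-fold without doxycycline (log2 change -1.95, SE 0.08) and 3.82-fold with it (log2 change -1.93, SE 0.08). The HMGB1 to HMGB2 count ratio was 1.97 ± 0.0697 in proliferating cells and 6.04 ± 0.510 in senescent cells, and 2.36 ± 0.211 and 6.01 ± 0.225 with doxycycline. Doxycycline lowered HMGB1 1.29-fold in proliferating cells (adjusted p = 0.00299) and 1.27-fold in senescent cells (adjusted p = 0.00236, and 0.0733 with total counts only). HMGB1 has 50 pseudogenes in the table. Their summed counts were 11.8 to 13.8% of those of HMGB1 in the proliferating libraries of both groups and 12.1 to 13.7% in senescent libraries with doxycycline, but 21.4 to 24.01% in senescent libraries without it. Reads can be split between these copies, so the level of HMGB1 is uncertain by that order. Among the copies, HMGB1P5 was at 19.1 ± 3.61 CPM in senescent cells without doxycycline and 5.18 ± 0.599 CPM with it. HMGB1P6 was at 7.24 ± 0.296 and 5.84 ± 0.631 CPM in the same groups.

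The HMGA proteins, which bind the minor groove of AT-rich DNA through AT hooks, had the smallest log2 changes of the 10 under bleomycin without doxycycline. With doxycycline HMGA2 still had the smallest, while LBR (-1.01) changed less than HMGA1 (-1.51). HMGA1 (chromosome 6, 34236873 to 34246231) was at 1465 and 1454 CPM in proliferating cells, 1356 and 1406 CPM in those given doxycycline, 823 and 646 CPM in senescent cells and 475 and 497 CPM with doxycycline. The senescent replicates lay further apart than those of the other groups. Bleomycin lowered it 1.99-fold without doxycycline (log2 change -0.99, SE 0.11, adjusted p = 7.87e-07) and 2.84-fold with it (log2 change -1.51, SE 0.11, adjusted p = 1.01e-08). Doxycycline lowered it 1.51-fold in senescent cells (adjusted p = 0.000259). In proliferating cells the log2 change was -0.08 (95% interval -0.30 to 0.14, adjusted p = 0.642).

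HMGA2, which is high in embryonic and many tumour cells (chromosome 12, 65824460 to 65966291), was at 1028 and 975 CPM in proliferating cells, 1033 and 1067 CPM in those given doxycycline, 678 and 681 CPM in senescent cells and 523 and 567 CPM with doxycycline. Bleomycin lowered it 1.47-fold without doxycycline (log2 change -0.56, SE 0.08, adjusted p = 3.46e-05) and 1.93-fold with it (log2 change -0.95, SE 0.09, adjusted p = 1.61e-07). Doxycycline lowered it 1.25-fold in senescent cells (log2 change -0.32, SE 0.08, adjusted p = 0.00601). That call was lost with total counts only (adjusted p = 0.114) and without senescent replicate 1 with doxycycline (0.0704). In proliferating cells the log2 change was 0.07 (95% interval -0.11 to 0.25, adjusted p = 0.623). The HMGA2 to HMGA1 count ratio was 0.686 ± 0.0219 and 0.760 ± 0.00209 in proliferating cells without and with doxycycline, and 0.940 ± 0.163 and 1.12 ± 0.0271 in senescent cells.

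For both HMGA genes the doxycycline change was lower in senescent than in proliferating cells. The difference between the states was -0.52 for HMGA1 (SE 0.15, adjusted p = 0.0222) and -0.39 for HMGA2 (SE 0.12, adjusted p = 0.0325) on the log2 scale. Neither call held when libraries were scaled by total counts alone (adjusted p = 0.0793 and 0.185), and both were lost without either untreated proliferating library, without senescent replicate 1 and without senescent replicate 1 with doxycycline (adjusted p from 0.0551 to 0.181). That of HMGA1 was also lost without senescent replicate 2 with doxycycline (0.0512) and with the replicate number of the descriptions as a block (0.0684), and that of HMGA2 without senescent replicate 2 (0.0558).

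EZH2, the H3 methyltransferase of PRC2 (chromosome 7, 148807383 to 148884291), had the lowest level per kilobase of exon of the 10 in proliferating cells. It was at 45.5 and 45.4 CPM in proliferating cells, 30.7 and 29.3 CPM in those given doxycycline, 4.90 and 7.60 CPM in senescent cells and 6.06 and 6.43 CPM with doxycycline. The proliferating groups did not overlap, whereas the senescent groups did. Bleomycin lowered it 7.30-fold without doxycycline (log2 change -2.87, SE 0.14, adjusted p = 3.13e-10) and 4.81-fold with it (log2 change -2.27, SE 0.14, adjusted p = 5.64e-09). Doxycycline lowered it 1.51-fold in proliferating cells (log2 change -0.60, SE 0.13, adjusted p = 0.00293). Among senescent libraries the log2 change was 0.0039 (95% interval -0.33 to 0.34, adjusted p = 0.987). Tested directly, the changes in the 2 states differed, just under the threshold (log2 0.60, SE 0.20, adjusted p = 0.0479). That call was lost without any 1 of 7 libraries, the exception being senescent replicate 2, with adjusted p from 0.0755 to 0.198. It was also lost in a fit without robust estimation (adjusted p = 0.0625) and with the replicate number of the descriptions as a block (0.123).

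Across the 10 genes, most doxycycline changes were downward in each state. In proliferating cells 6 of 10 were called lower (LMNB1, LMNB2, TMPO, HMGB1, HMGB2 and EZH2) and LMNA, LBR, HMGA1 and HMGA2 did not pass, while 23.0% of all genes tested were called, 10.4% lower and 12.6% higher. The median log2 change of the 10 was -0.39, against 0.00073 over all genes. Libraries with and without doxycycline did not overlap for 9 of 10 genes, all but LBR, against 61.6% of all genes (30.4% higher, 31.2% lower). In senescent cells 7 of 10 were called lower (all but LBR, TMPO and EZH2) and 2 higher (LBR and TMPO), while 46.3% of all genes were called, 23.8% lower and 22.6% higher. The median log2 change was -0.34, against -0.0038 over all genes. Libraries did not overlap for 9 of 10 genes, all but EZH2, against 73.4% of all genes (36.6% higher, 36.8% lower). With total counts only, all genes shifted by a median of 0.17 on the log2 scale, 4 of 10 were called lower in senescent cells, and 69.3% of all calls were higher in place of 48.7%. Against a fold of 1.5 as the threshold, none of the lower calls under doxycycline remained in either state, and LBR was the 1 member still called in senescent cells. The bleomycin and doxycycline comparisons share libraries, so their values are given side by side and were not related to each other.

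The difference of the doxycycline changes between the states was called for 5 of 10 genes, higher in senescent cells for LBR, TMPO and EZH2 and lower for HMGA1 and HMGA2. Over all genes 19.9% were called in that comparison, 8.08% higher and 11.8% lower. The median of the 10 was 0.0026, against -0.03 over all genes. With total counts only, HMGB2 joined the higher calls (log2 0.47, adjusted p = 0.0193), and 70.5% of all calls were higher in place of 40.7%.

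**Figure D3:**
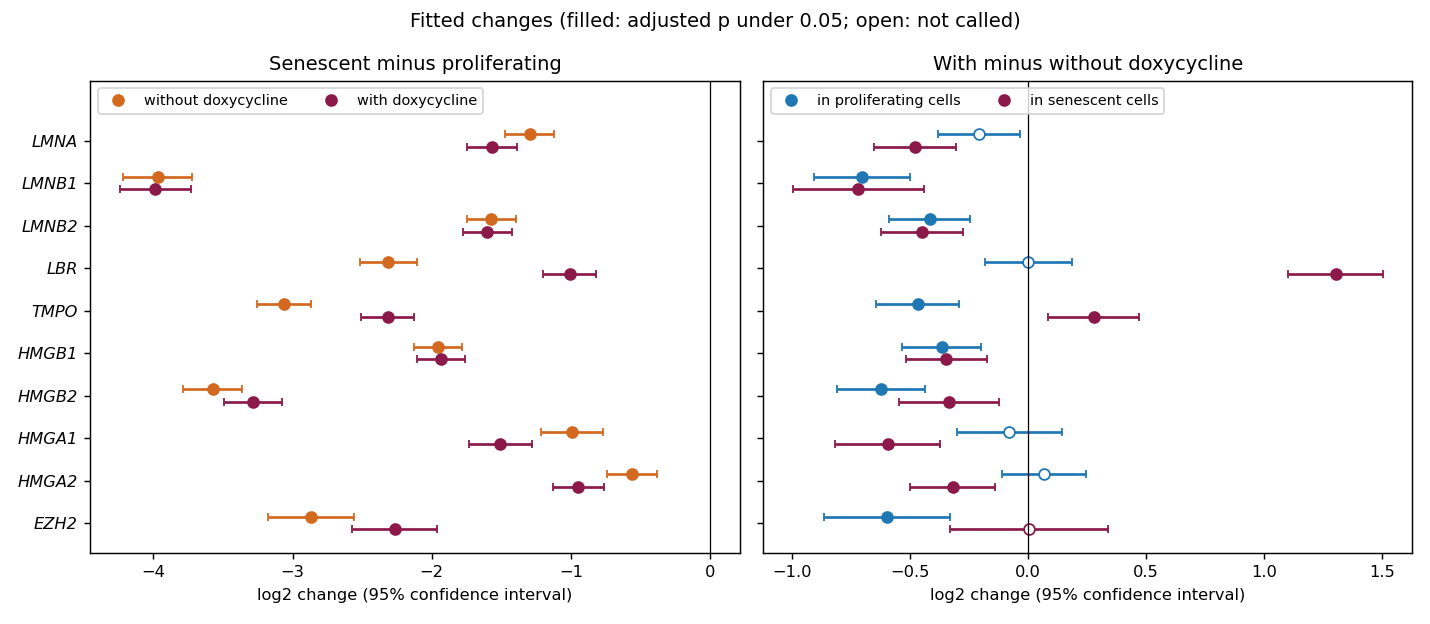
Fitted log2 changes of the 10 genes with 95% confidence intervals, for senescent minus proliferating cells (left) and for with minus without doxycycline (right). Filled points were called at an adjusted p under 0.05, open points were not. The left panel has all values below 0, and in the right panel LBR stands at 1.30 in senescent cells while most other points lie below 0.

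Per kilobase of exon in GENCODE v29, which may differ from the annotation the authors used, HMGA1 had the highest level in each group, from 627 ± 3.40 CPM per kb in proliferating cells to 209 CPM per kb in senescent cells with doxycycline. LMNA came next in each group, with 197 ± 6.72 and 80.4 CPM per kb in proliferating and senescent cells without doxycycline. HMGB2 followed at rank 3 in proliferating cells (130 ± 5.18 CPM per kb) and stood at rank 6 in senescent cells (10.9 ± 0.407 CPM per kb). LMNB1 went from 42.3 ± 0.167 CPM per kb to 2.71 CPM per kb, and EZH2 from 14.8 ± 0.0233 to 2.04 CPM per kb. In proliferating cells HMGA2 (71.4 ± 2.67 CPM per kb), HMGB1 (66.5 ± 0.296) and LMNB2 (63.4 ± 1.78) came at ranks 4 to 6. Their spacing depends on the length used: per kb of the longest coding transcript they were at 124, 89.1 and 63.4 CPM, in the same order.

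The genes most like each member were found by the root mean square difference of log2 CPM, centred on each gene's mean, over the 8 libraries. The search covered 9122 protein-coding genes, other than the 10, whose mean log2 CPM reached 3. LMNB1 was closest to NUF2 (difference 0.122), KIF2C and CDCA3, and HMGB2 to GINS2 (0.129), CCNA2 and CCNB1. TMPO was closest to MCM2 (0.0791), CENPH and POC1A, and EZH2 to CENPH (0.147), DTL and MCM2. TMPO and EZH2 were also each other's nearest member (0.181). LMNA was closest to MTHFD1 (0.0613), LMNB2 to ARHGAP19 (0.0759) and HMGB1 to ORC6 (0.105). HMGA1 was closest to HNRNPA2B1 (0.0753) and HMGA2 to PITRM1 (0.0534). LBR was closest to PAFAH1B3 (0.151), SHMT1 and ACAT2, and its nearest member, HMGB1, was at 0.621, further than for any other of the 10.

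Genes that mark proliferation were lowered by bleomycin, as the members were, and their part in these results was not tested. All 11 proliferation markers were called lower by bleomycin without doxycycline and with it, against 29.4% and 28.7% of all genes. In proliferating cells doxycycline lowered 10 of 11, with a median log2 change of -0.43, where 10.4% of all genes were called lower. In senescent cells it lowered 8 and raised 1, against 23.8% and 22.6% of all genes. The median log2 change of the markers there was -0.85, against -0.34 for the 10 members. Without doxycycline their summed level was 2098 to 2123 CPM in proliferating and 264 to 317 CPM in senescent libraries. With it the sums were 1472 to 1533 and 159.7 to 168 CPM. MKI67, the Ki-67 antigen of cycling cells, fell from 29.3 ± 7.33 to 9.92 ± 0.846 CPM with doxycycline in senescent cells. The replication helicase gene MCM2 was the 1 marker that rose there, from 11.5 ± 1.95 to 14.5 ± 0.452 CPM (log2 change 0.33, adjusted p = 0.0193), as TMPO did.

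Other HMG proteins fell with bleomycin in most cases. Of 12 tested, 9 were called lower and 2 higher without doxycycline (29.4% and 29.8% of all genes), with a median log2 change of -0.85. HMGN2, a nucleosome-binding protein with many retrocopies, fell from 272 ± 13.1 to 40.1 ± 0.738 CPM and HMGB3 from 58.4 ± 0.448 to 11.4 ± 1.08 CPM. With doxycycline in both states 8 were called lower and 2 higher (28.7% and 26.8% of all genes). Doxycycline lowered 4 of the 12 in proliferating cells, where 10.4% of all genes were called lower. In senescent cells it lowered 5 and raised 3, against 23.8% and 22.6% of all genes.

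Among the partners of EZH2, the changes were mixed. Of 10 other PRC2 genes tested 5 were called lower and 2 higher by bleomycin without doxycycline, with a median log2 change of -0.29. Over all genes 59.2% were called in that comparison, 29.4% lower and 29.8% higher, so the 7 called are near the share over all genes. PHF19, a Polycomb-like subunit, fell from 78.8 ± 1.14 to 14.5 ± 1.01 CPM, and the histone-binding RBBP7 from 207 ± 1.10 to 93.4 ± 0.475 CPM. MTF2, another Polycomb-like subunit, fell, changing by -0.73 on the log2 scale. Under doxycycline EZH1, the homologue of EZH2, rose in senescent cells by 0.26 on the log2 scale (23.6 ± 0.0910 to 28.3 ± 0.0496 CPM, adjusted p = 0.0223). Of 17 PRC1 genes 9 were called lower and 1 higher by bleomycin without doxycycline, a total again near that share, and CBX2 had the largest change (log2 -2.69). KDM6B, which removes the methyl mark that EZH2 sets, rose with bleomycin from 14.0 ± 0.275 to 27.4 ± 0.331 CPM without doxycycline. With doxycycline it was at 10.8 ± 0.454 CPM in proliferating and 18.9 ± 0.311 CPM in senescent cells. KDM6A, the other demethylase listed, was not called under bleomycin without doxycycline (log2 change 0.17, edgeR adjusted p = 0.189). For neither gene was the difference of the doxycycline changes between the states called.

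Of 14 heterochromatin factors 9 were called lower and 1 higher by bleomycin without doxycycline (29.4% and 29.8% of all genes), with a median log2 change of -1.06. The largest changes were those of UHRF1, which guides DNA methylation to new DNA (log2 -3.22), the histone methyltransferase SUV39H1 (-2.35) and the helicase HELLS (-2.15). Of 17 nuclear envelope partners 9 were called lower and 4 higher (against the same shares), with a median log2 change of -0.22. SYNE2, which links the nucleus to the cytoskeleton, went from 22.4 ± 0.182 to 4.84 ± 1.02 CPM without doxycycline and from 12.3 ± 0.0777 to 2.78 ± 0.0605 CPM with it. Among 6 lamin processing enzymes 2 were called lower and 1 higher, no more than the 59.2% called over all genes. The protease gene RCE1 changed by -1.16. ZMPSTE24, the protease that matures lamin A, stood at 87.8 ± 0.480 CPM in proliferating cells, 96.7 ± 6.03 CPM in senescent cells, and 76.4 ± 1.27 CPM once doxycycline was added to the latter (log2 change -0.34 against senescent cells without it, adjusted p = 0.00204).

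**Figure D4:**
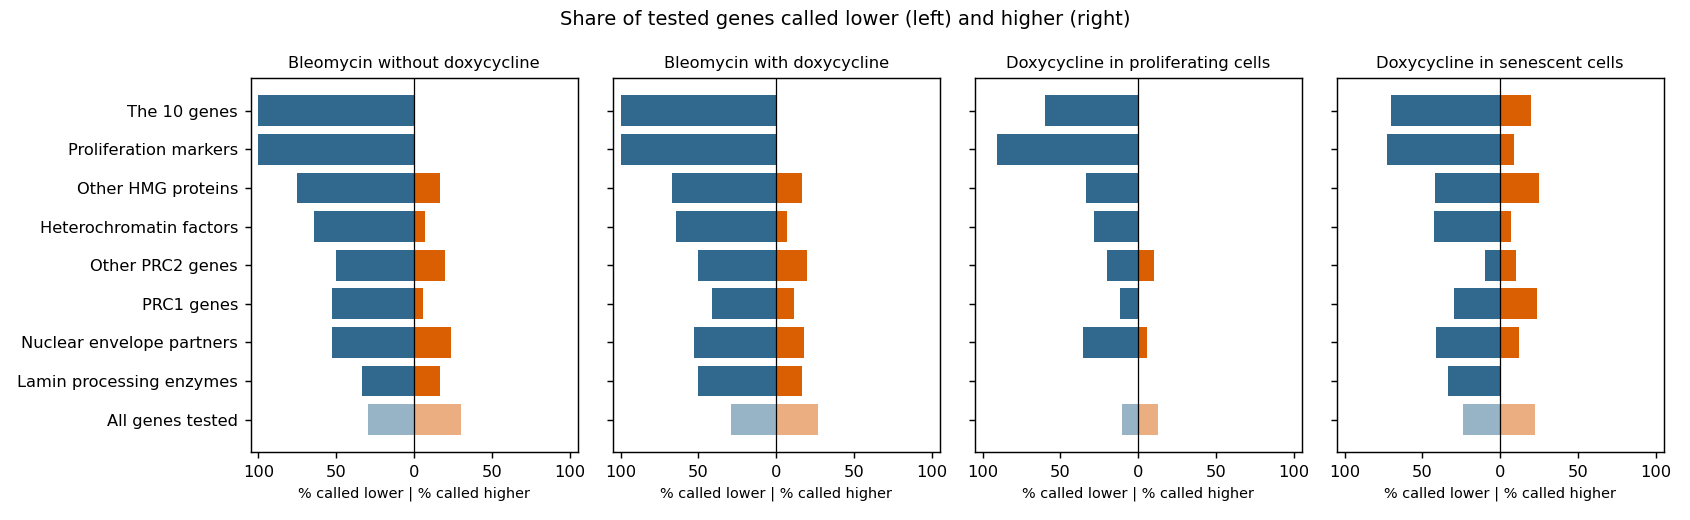
Share of the tested genes of each list called lower (left of 0) or higher (right of 0) by edgeR at an adjusted p under 0.05, in 4 comparisons, with all genes tested in the bottom row. The 10 genes and the proliferation markers are all called lower in both bleomycin comparisons, and the 10 genes have both directions under doxycycline in senescent cells.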

How the data were processed

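Raw read counts per gene were deposited by the authors for all 8 libraries. Trimmomatic 0.36, HISAT2 2.1.0, featureCounts 1.6.3 and hg38 were used, per the submitters' processing notes. Their settings, gene annotation and strand handling: not given in the sources used here. Reads of overlapping, antisense and near-identical genes are therefore uncertain. A stranded mRNA kit and RNA with an integrity number above 7.0 were used, per the labels' protocols.

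Libraries were grouped by title. Genes that passed filterByExpr were analysed in R 4.3.3 with edgeR 4.0.16 (TMM factors, robust quasi-likelihood fit, 4 groups, 4 residual degrees of freedom). Tests were two-sided, adjusted by Benjamini-Hochberg over 17155 genes at 0.05, in 5 contrasts. SE is the size of the log2 change divided by the square root of F. Log2 CPM used a prior count of 2. Limma 3.58.1, DESeq2 1.42.0, other scalings, filters, replicate blocks, a 1.5-fold test and each library left out were alternatives. Scripts were tested on simulated data. Gene positions and promoters are from RefSeq GRCh38.p14, exon lengths from GENCODE v29. Plots used matplotlib 3.10.9 in Python 3.11.15.

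The members, lists and tests were chosen with earlier results of these data known. Of other lists, up to 3 called genes with the largest change per contrast could be named, besides genes of lists of 6 or fewer, YAP1, proliferation markers, and antisense genes or pseudogenes named after a member. The 3 genes closest to each member could be named too.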

Additional observations from a re-analysis of the deposited data

Results flagged for a closer look

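For 5 of the 10 genes the doxycycline change differed between senescent and proliferating cells by edgeR's test of the difference (log2 of the change in senescent minus that in proliferating cells). It was 1.30 for LBR (adjusted p = 6.80e-06), 0.75 for TMPO (0.000592), 0.60 for EZH2 (0.0479), -0.52 for HMGA1 (0.0222) and -0.39 for HMGA2 (0.0325). Over all genes 19.9% were called in that test, 8.08% higher and 11.8% lower. LBR and TMPO held their calls with each library left out in turn. EZH2, HMGA1 and HMGA2 did not.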

How the results depend on the processing

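The bleomycin counts stayed at 9 or 10 lower of 10 under every alternative run. With total counts only, 4 members were called lower under doxycycline in senescent cells and 0 had a lower difference between the states. Against a 1.5-fold change, 0 were lower under doxycycline in proliferating cells, 1 was higher and 0 lower in senescent cells, and the difference was higher for 1 and lower for 0. That test called 4350, 3547, 689, 2159 and 517 genes in all, against 10155, 9519, 3938, 7951 and 3407 (bleomycin without and with doxycycline, doxycycline in proliferating and senescent cells, difference). With each library left out, 1 to 2 members were higher under doxycycline in senescent cells and 0 to 2 had a lower difference. Doxycycline in proliferating cells then called 2099 and 2011 genes without proliferating replicate 1 or 2, and the difference 1954 and 1852, or 2022 without senescent replicate 1 with doxycycline.

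Titles and descriptions number the libraries differently: 1 and 2 in the titles, and in the descriptions 2 and 3 in untreated proliferating cells but 1 and 3 in the other groups. By title, 6 correlations of replicate differences ran from -0.09 to 0.38, with 2 over 0.1. Among the 3 groups that share description numbers they were 0.38, 0.14 and 0.055, and by description the untreated group cannot be checked in this way. The main fit assumed no pairing because none is stated, and these correlations do not settle whether libraries were paired. The replicate block by title number changed no count of members called, called 10344, 9746, 4355, 8281 and 3871 genes, and put LBR in proliferating cells at -0.0016. Description number 2 belongs to 1 library only, untreated proliferating replicate 1. A block by description number therefore fits that library exactly and in effect leaves it out, so its results do not separate pairing from the loss of that library. The block by description number ended the calls of the difference for EZH2 (adjusted p = 0.123) and HMGA1 (0.0684), which left 2 members with a higher and 1 with a lower difference, and 2353 genes called under doxycycline in proliferating cells.

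Changes near 0 turned sign, none of them called. LBR under doxycycline in proliferating cells was -0.018 with DESeq2 size factors, -0.010 with total counts, -0.0012 with limma-voom, -0.018 with DESeq2, -0.0026 with a stricter filter on the mean log2 CPM, and -0.078 to 0.079 with a library left out. EZH2 in senescent cells was -0.0010 with DESeq2 size factors, -0.0020 with DESeq2, -0.0074 with no filter and -0.29 to 0.34 with a library left out. The difference between the states for LMNB1 was 0.16 with total counts, 0.0051 with limma-voom, 0.032 with the stricter filter and -0.24 to 0.21 with a library left out. For LMNB2 it was 0.15, 0.017 with the stricter filter and -0.13 to 0.060, and for HMGB1 -0.035 to 0.068. Beyond the scaling and the samples left out, the cause was not tested. The precision of all values is limited by 2 libraries per group.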
